A study of Homo sapiens with 16 samples.

Results

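Protocadherins are the largest group of cadherin-like adhesion proteins, and they were followed here across 4 clones of MDA-MB-231, a human line from a triple-negative breast cancer. The members are all genes whose symbol starts with PCDH in the deposited table, which gave 26 of 14857 listed genes. They comprise 5 nonclustered genes (PCDH1, PCDH7, PCDH9, PCDH10 and PCDH18), 11 genes of the beta cluster and 10 genes of the gamma cluster. No gene of the alpha cluster is among the listed genes. All 4 clones carried the components of a tet-off system, where the transgene is shut by doxycycline, and were grown under selection with G418 and hygromycin. Clones TTP_E11 and TTP_H3 expressed tristetraprolin (TTP, encoded by ZFP36), which binds AU-rich mRNAs and speeds their decay, and clones EV_A and EV_B carried an empty vector. The labels state maintenance in doxycycline, at 2 µg/mL, for the TTP clones only. They state a washout of at least 24 h before experiments for all 4 clones. Drug maintenance as labelled and TTP thus go together and cannot be told apart. Each clone gave 4 libraries named biological replicates.

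Clustered protocadherins are cell-surface recognition molecules best known from neurons, in which each cell transcribes a small set of isoforms and so acquires an identity for self-recognition and synapse formation. In the alpha and gamma clusters, every isoform is made by splicing 1 variable exon, with its own promoter, to constant exons that the whole cluster shares, whereas beta genes consist of their variable exon without the shared constant exons. Promoter choice depends on CTCF and cohesin bound at a conserved element in the promoters and on DNA methylation. Nonclustered protocadherins are separate genes, divided into delta1 (here PCDH1, PCDH7 and PCDH9) and delta2 (here PCDH10 and PCDH18), and act in adhesion and in signalling to the cytoskeleton.

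The sharing of constant exons bears on how gamma reads can be counted. In GENCODE 29 on GRCh38, PCDHGB2 is a variable exon of 2421 bases at chr5:141360136-141362556 followed by constant exons of 59, 89 and 2033 bases. Of the 22 gamma genes, 22 share the exon of 59 bases and 22 that of 89 bases, while 21 share the last one with exactly these ends. The shortest constant exon, at chr5:141494807-141494865 on the plus strand of GRCh38, is shown because a read inside it names the cluster but no isoform.
gamma constant exon: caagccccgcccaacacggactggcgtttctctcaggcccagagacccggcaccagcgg
Exon bases that each gamma member shares with other genes made up between 27.6% (PCDHGA6) and 57.3% (PCDHGB1) of its length. The beta members share 0 exon bases with another protocadherin gene, but their sequences are alike. Of all stretches of 50 bases in the own exons of PCDHB8, 45.1% also occur in another gene, most often PCDHB13, against 7.76% for PCDHB16, the lowest among beta members. For gamma members this share was between 0% (PCDHGC3, PCDHGC5 and PCDHGB3) and 14.7% (PCDHGB1), and for PCDH1, PCDH7, PCDH10 and PCDH18 it was 0%. No source used here says how the authors treated reads that fit several genes, so values of beta and gamma genes that resemble each other are uncertain in this respect. Several beta genes, PCDHGB1 and PCDH9 also overlap a gene on the opposite strand in this annotation, and whether strand was used in counting is not stated. In PCDH9 the overlap covers 0.465% of exon bases.

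Beta genes also resemble each other at their promoters. RefSeq promoter windows on GRCh38.p14, from 250 bases before to 50 bases after the annotated start, were found for 22 of the 26 members. PCDH10, PCDHB6, PCDHB11 and PCDHGC5 had no entry. For the 9 beta members with an entry, a stretch of 30 bases on the plus strand is shown because all 9 hold the letters GGTGGCGCT, printed in capitals.
PCDHB2 (chr5:141094543-141094572): gaagagacgcggGGTGGCGCTgcagcctta
PCDHB8 (chr5:141177776-141177805): gtgaggacccgtGGTGGCGCTgcaggataa
PCDHB16 (chr5:141182309-141182338): gtgagaacgcgtGGTGGCGCTgcaggttaa
PCDHB9 (chr5:141187073-141187102): tggaagccacaaGGTGGCGCTgcagactga
PCDHB10 (chr5:141192298-141192327): tggaggccacacGGTGGCGCTgcaggctaa
PCDHB12 (chr5:141208642-141208671): gtggagacgcgtGGTGGCGCTgcaggataa
PCDHB13 (chr5:141213864-141213893): gtgaggacgcgtGGTGGCGCTgcaggataa
PCDHB14 (chr5:141223262-141223291): atggagacacatGGTGGCGCTacaggataa
PCDHB15 (chr5:141245313-141245342): aagacaacgcatGGTGGCGCTgcaggctaa
These letters were picked after the sequences had been seen. On both strands they occur in 9 of 9 beta members, in 4 of 5 beta genes outside the table with an entry, in 0 of 9 gamma members and in 0.501% of all 35116 promoter windows. The shorter core CGCT of the conserved element, which lies within these letters, is common and occurs in 70% of all windows, in 9 of 9 beta members and in 9 of 9 gamma members. GGCGCT, which contains CGCT and lies within the longer letters, occurs in 21.7% of all windows, in 9 of 9 beta members and in 3 of 9 gamma members. PCDHB13, the beta gene with the highest level per length, and PCDHB15, that with the lowest, both hold the printed letters.

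The libraries held between 14380767 and 22066098 reads on the listed genes. ZFP36 had between 10160 and 15041 normalized counts (reads divided by 1 size factor per library) in the TTP libraries, against between 213 and 282 in the EV libraries (adjusted p = 5.83e-35, limma), although the titles of 7 of the 8 TTP libraries call them EV. Of 8 markers of MDA-MB-231, 8 were listed, with summed levels between 95478 and 100832 normalized counts in TTP libraries and between 123610 and 127576 in EV libraries. In TTP clones 1 of these markers was higher and 5 were lower (adjusted p below 0.05, limma, median log2 change -0.35). Over all genes, 35.4% were higher and 34.6% lower. Of 5 genes known to be low in this line, such as CDH1 and ESR1, 0 were listed. Replicate 3 of TTP_H3 and replicate 4 of EV_B were least like the other libraries of their clones, with median correlations of 0.9903 and 0.9923 against at least 0.9933 for all others. Where leaving out 1 of them changed the call of a member, the value without it is given with that member. The p-values rest on how much cultures of the same clone varied and not on how much clones varied, of which there were 2 per arm. The culture is a bulk of cells, so fewer expressing cells and less RNA per cell cannot be told apart.

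As a group, the members were expressed at low levels. Their median over the 16 libraries was 40.4 normalized counts, against 433 for all listed genes, and per kilobase of exon it was 8.35 against 86.8 normalized counts. All 26 members lay below that median of all genes per kilobase, with length taken over all exons, in gamma genes also the shared constant ones. Per kilobase of own exon, PCDHGB2 held 126 normalized counts in TTP_E11, 98.7 in TTP_H3, 130 in EV_A and 117 in EV_B, above 86.8. By length over all exons, the class medians were 2.07 in the nonclustered genes, 12.95 in the beta genes and 3.88 in the gamma genes. Since only the gamma lengths hold the constant exons, beta and gamma are not compared on like lengths here. The fewest reads of a member in a library were 1, so changes of the lowest members are measured with little precision.

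**Figure D1:**
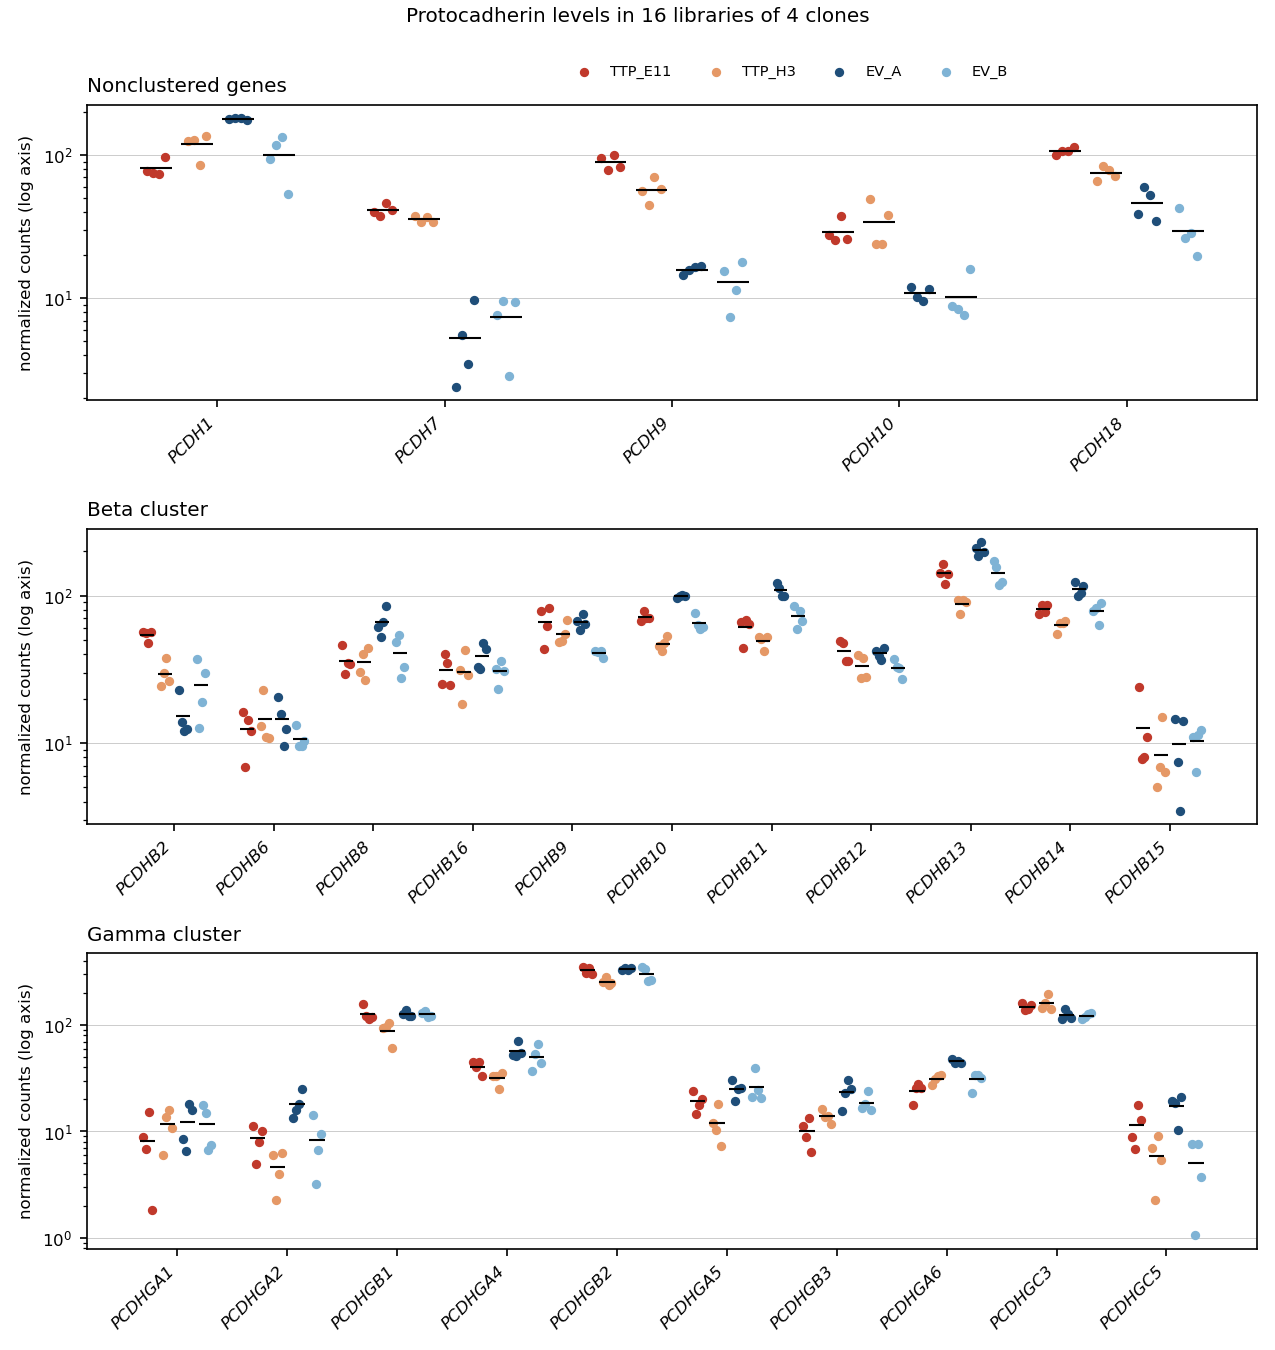
Normalized counts of the 26 protocadherin genes (y axes, log scale) in the 16 libraries; each dot is a library, black lines are clone means, and genes are ordered along chromosome 5 in the cluster panels. The TTP and EV libraries are apart for PCDH7, PCDH9, PCDH10 and PCDH18 and overlap for every other gene.

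Whether protocadherin mRNAs differed between cells with and without TTP was asked first. Of the 5 nonclustered genes, 4 were higher in TTP clones, by log2 changes between 1.29 and 2.56. Of the 21 clustered genes, 12 were lower and 2 were higher over the mean of the clones, while in TTP_E11 versus EV_B 1 was lower and 4 were higher. Over the mean of the clones of each arm, 6 of 26 members were higher and 13 were lower (limma, Benjamini-Hochberg adjusted p below 0.05 over all 14857 genes), and 7 did not pass. Differences were common in this comparison, since 35.4% of all genes were higher, 34.6% were lower and 70% passed in either direction. The median log2 change was 1.48 over the nonclustered genes, -0.18 over the beta genes and -0.38 over the gamma genes, against 0.00066 over all genes. A stricter reading asks that each TTP clone differ from each EV clone with the same sign, in 4 tests, which is called concordant here. By it 5 members were higher, PCDH7, PCDH9, PCDH10, PCDH18 and PCDHGC3, where the share of all genes was 19%. By the same rule 0 members were lower, where the share of all genes was 19.5%. The count of lower concordant members was also 0 at unadjusted p-values below 0.05 in limma, 0 in edgeR and 0 in DESeq2. The 8 TTP libraries did not overlap the 8 EV libraries in 4 members, all nonclustered and all higher, while 15.6% of all genes were without overlap and higher and 16.2% were without overlap and lower. In the authors' deposited table, 6 members were higher and 11 were lower at an adjusted p below 0.05, with shares of 32% and 31.7% over all genes.

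**Figure D2:**
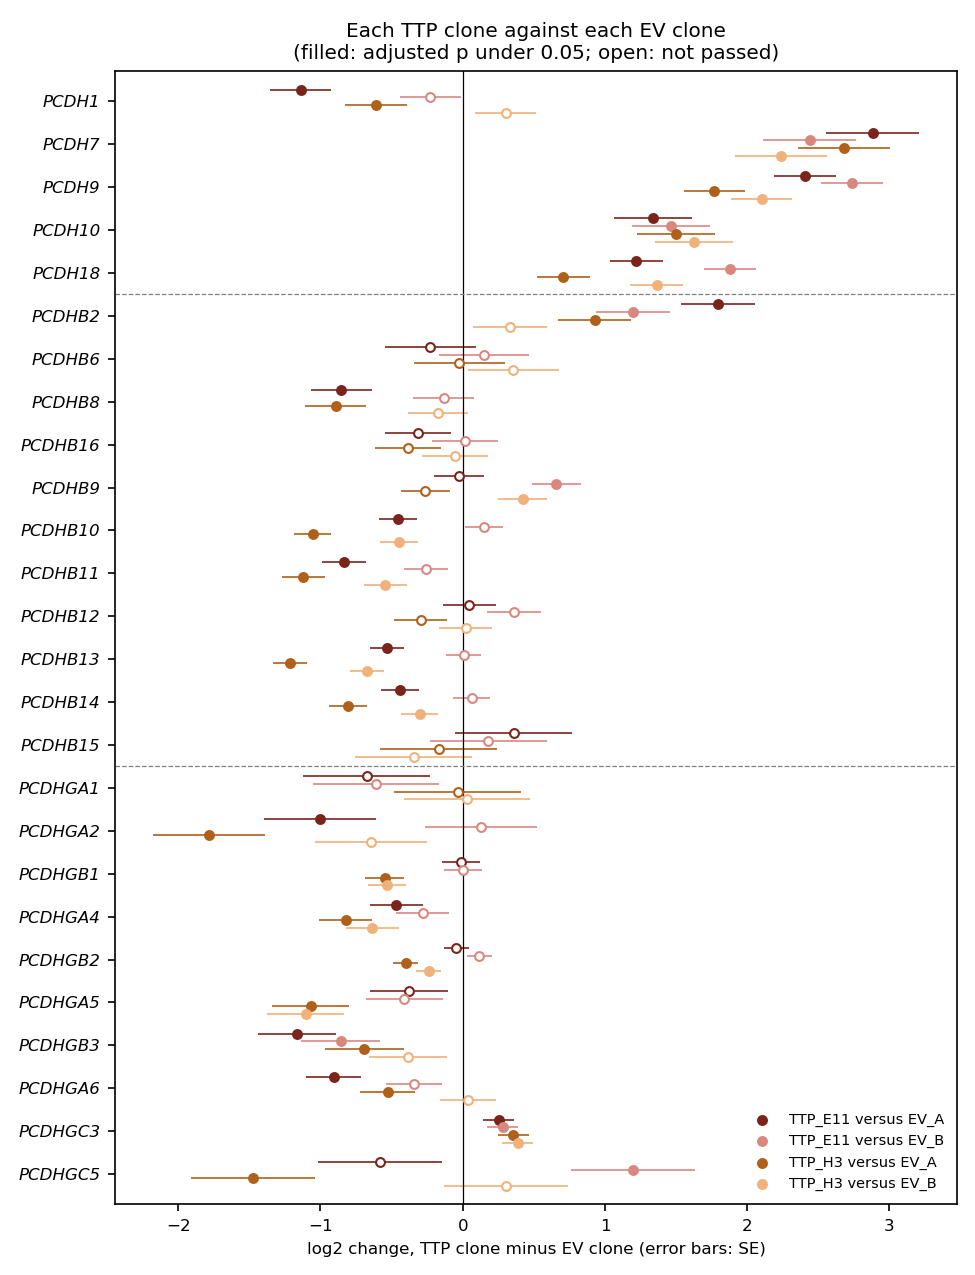
Log2 change with SE (x axis) of each protocadherin gene for each pairing of a TTP clone with an EV clone; filled symbols passed at an adjusted p below 0.05, and dashed lines divide nonclustered, beta and gamma genes. All 4 symbols are filled and to the right of 0 for PCDH7, PCDH9, PCDH10, PCDH18 and PCDHGC3, and no gene has all 4 filled to the left.

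PCDH7, a delta1 gene whose protein has been linked to spread of breast cancer cells to the brain and binds the phosphatase inhibitor SET, differed most between the arms. It lies on chromosome 4 at 30720415 to 31146805. Replicates 1 to 4 had 40.1, 37.3, 46.5 and 41.5 normalized counts in TTP_E11 and 37.3, 34.4, 36.9 and 34.3 in TTP_H3, against 2.41, 5.57, 3.46 and 9.76 in EV_A and 7.70, 9.53, 2.85 and 9.40 in EV_B. Every TTP library was above every EV library, and the EV libraries rested on few reads. The log2 change was 2.56 ± 0.23 (SE, adjusted p = 1.12e-11, limma), on the log2(value + 1) scale, which understates the change of a gene this low. The clones of an arm were close, with a log2 difference of -0.20 between TTP_H3 and TTP_E11 (adjusted p = 0.759) and of 0.44 between EV_B and EV_A (adjusted p = 0.304).

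PCDH9, a delta1 gene on chromosome 13 at 66302834 to 67230445, is a very long gene with expression known mainly from the nervous system. It had 95.3, 78.5, 100.1 and 82.0 normalized counts in TTP_E11 and 56.5, 44.7, 69.8 and 57.8 in TTP_H3, against 14.5, 15.8, 16.5 and 16.9 in EV_A and 15.4, 7.41, 11.4 and 17.9 in EV_B. The arms were apart, and all TTP_E11 libraries were above all TTP_H3 libraries. The log2 change was 2.25 ± 0.15 (SE, adjusted p = 1.47e-14, limma). Between the TTP clones, TTP_H3 minus TTP_E11 was -0.64 in log2 with an adjusted p of 0.0514, which misses the threshold. It passed without replicate 3 of TTP_H3 (-0.74, adjusted p = 0.0261) and without replicate 4 of EV_B (-0.64, adjusted p = 0.0327).

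PCDH10, a delta2 gene on chromosome 4 at 133149315 to 133208606 whose protein binds the WAVE complex of actin regulators, was low in all clones. It had 27.6, 25.5, 37.5 and 25.8 normalized counts in TTP_E11 and 49.5, 24.1, 23.9 and 37.9 in TTP_H3, against 12.1, 10.2, 9.53 and 11.5 in EV_A and 8.80, 8.47, 7.61 and 15.99 in EV_B. No TTP library was below an EV library, though replicate 4 of EV_B stood above the other EV libraries. The log2 change was 1.48 ± 0.19 (SE, adjusted p = 4.02e-08, limma).

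PCDH18, also a delta2 gene, lies on chromosome 4 at 137518918 to 137532494. Its protein was found in mouse to bind the adaptor Disabled-1. It had 100.3, 106.9, 107.2 and 113.4 normalized counts in TTP_E11 and 65.6, 83.6, 78.8 and 71.3 in TTP_H3, against 38.6, 59.4, 52.8 and 34.6 in EV_A and 42.9, 26.5, 28.5 and 19.7 in EV_B. The lowest TTP library, replicate 1 of TTP_H3, was just above the highest EV library, replicate 2 of EV_A. The log2 change was 1.29 ± 0.13 (SE, adjusted p = 2.08e-10, limma). The EV clones differed as well, with EV_B below EV_A by a log2 change of -0.66 ± 0.19 (SE, adjusted p = 0.0055), or of -0.49 without replicate 4 of EV_B (adjusted p = 0.0366). The contrasts of single clones ranged from 0.71 for TTP_H3 with EV_A to 1.88 for TTP_E11 with EV_B.

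PCDH1, a delta1 gene known from airway epithelium and as a hantavirus receptor, went the other way from the rest of its class. It lies on chromosome 5 at 141853111 to 141879246, beyond the end of the gamma cluster. It had 77.7, 75.5, 74.2 and 96.8 normalized counts in TTP_E11 and 126.2, 127.2, 84.8 and 136.3 in TTP_H3, against 178.5, 180.1, 181.0 and 174.8 in EV_A and 94.6, 117.5, 133.2 and 53.6 in EV_B. EV_A was above all other libraries, while EV_B overlapped both TTP clones. The log2 change of TTP versus EV was -0.42 ± 0.15 (SE, adjusted p = 0.0218, limma). It was -1.14 for TTP_E11 and -0.61 for TTP_H3 against EV_A (adjusted p = 0.000187 and 0.0205), but -0.23 and 0.30 against EV_B (adjusted p = 0.385 and 0.244). These values moved with replicate 4 of EV_B, the lowest library. Without it the log2 change was -0.55 for TTP versus EV (adjusted p = 5.37e-06, limma), -0.50 for TTP_E11 versus EV_B (adjusted p = 0.00308) and 0.03 for TTP_H3 versus EV_B (adjusted p = 0.855). EV_B was below EV_A by a log2 change of -0.91 ± 0.22 (SE, adjusted p = 0.00303), and of -0.64 without that library (adjusted p = 0.000577). Without replicate 3 of TTP_H3, TTP_H3 versus EV_A was -0.46 and did not pass (adjusted p = 0.0631).

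In the beta cluster, 1 of 11 members was higher in TTP clones (PCDHB2) and 5 were lower (PCDHB8, PCDHB10, PCDHB11, PCDHB13 and PCDHB14). Over all genes, 35.4% were higher and 34.6% lower. Beta genes encode cell-surface recognition proteins without the cytoplasmic end common to the alpha or gamma isoforms. The 5 lower genes had log2 changes between -0.69 (PCDHB11) and -0.37 (PCDHB14), and none of the 5 was lower in TTP_E11 than in EV_B beyond the test. PCDHB6, PCDHB9, PCDHB12, PCDHB15 and PCDHB16 did not pass, with log2 changes between -0.18 (PCDHB16) and 0.20 (PCDHB9). Without replicate 3 of TTP_H3, PCDHB16 passed as lower in TTP_H3 than in EV_A (log2 change -0.56, adjusted p = 0.0352, against -0.38 and 0.149 with it).

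PCDHB13, at 141213919 to 141218979 on chromosome 5, was the leading beta isoform. It had 142.9, 162.8, 119.7 and 141.0 normalized counts in TTP_E11 and 92.9, 74.5, 93.8 and 90.3 in TTP_H3, against 208.7, 184.7, 229.5 and 196.2 in EV_A and 170.6, 156.7, 117.0 and 123.2 in EV_B. TTP_H3 was below and EV_A above all other libraries, and TTP_E11 and EV_B overlapped. The log2 change of TTP versus EV was -0.60 ± 0.09 (SE, adjusted p = 2.02e-07, limma), but that of TTP_E11 versus EV_B was 0.01 ± 0.12 (adjusted p = 0.966).

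PCDHB11, PCDHB14 and PCDHB10, which lie near PCDHB13, had the same order of extremes. PCDHB11 had 66.5, 44.1, 68.8 and 64.5 normalized counts in TTP_E11 and 52.5, 50.4, 41.9 and 52.4 in TTP_H3, against 121.8, 112.3, 99.6 and 99.4 in EV_A and 84.7, 59.3, 79.0 and 67.7 in EV_B. PCDHB14 had 75.2, 86.3, 76.9 and 86.6 in TTP_E11 and 54.5, 65.3, 64.8 and 66.8 in TTP_H3, against 124.2, 99.3, 103.9 and 115.4 in EV_A and 78.1, 82.6, 62.8 and 89.3 in EV_B. EV_A was above all other libraries in both genes, and TTP_H3 had the lowest mean of the 4 clones. PCDHB10 had 67.7, 78.5, 70.6 and 71.0 in TTP_E11 and 45.4, 42.4, 47.9 and 53.3 in TTP_H3, against 96.5, 99.3, 100.5 and 99.4 in EV_A and 75.9, 63.5, 59.0 and 61.1 in EV_B. Here too EV_A was highest and TTP_H3 lowest without overlap with the others. Their log2 changes for TTP versus EV were -0.69 ± 0.11 for PCDHB11 (adjusted p = 1.14e-06), -0.37 ± 0.09 for PCDHB14 (adjusted p = 0.00072) and -0.45 ± 0.09 for PCDHB10 (adjusted p = 7.40e-05, SE, limma). For PCDHB14 the difference of TTP_H3 from EV_B (log2 change -0.30, adjusted p = 0.0475) was lost without replicate 4 of EV_B (-0.24, adjusted p = 0.151) and without replicate 3 of TTP_H3 (-0.32, adjusted p = 0.0526). PCDHB8, which shares much sequence with PCDHB13, ranged between 26.9 and 46.4 normalized counts in TTP libraries and between 27.6 and 85.2 in EV libraries, with a log2 change of -0.51 ± 0.15 (SE, adjusted p = 0.003, limma).

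PCDHB2 and PCDHB9 stood apart from these genes. PCDHB2, near the start of the cluster at 141094578 to 141098703, had 56.4, 55.9, 47.4 and 56.2 normalized counts in TTP_E11 and 24.2, 29.8, 37.9 and 26.2 in TTP_H3, against 22.9, 13.9, 12.1 and 12.4 in EV_A and 37.4, 12.7, 19.0 and 30.1 in EV_B. TTP_E11 was above all other libraries, and TTP_H3 overlapped EV_B. The log2 change of TTP versus EV was 1.06 ± 0.18 (SE, adjusted p = 5.42e-06, limma), and TTP_H3 versus EV_B was the contrast that did not pass (0.33, adjusted p = 0.281). PCDHB9 had 79.0, 43.2, 62.6 and 82.0 in TTP_E11 and 48.4, 49.3, 54.9 and 68.6 in TTP_H3, against 67.5, 58.5, 74.5 and 63.9 in EV_A and 41.8, 41.3, 41.9 and 37.6 in EV_B. EV_B was below all other libraries, and the other clones overlapped. PCDHB9 was higher against EV_B in both TTP clones, by log2 changes of 0.66 and 0.42 (adjusted p = 0.0015 and 0.036, limma), and did not pass against EV_A. The second of these was lost without replicate 4 of EV_B (0.39, adjusted p = 0.0741). Its log2 change for TTP versus EV was 0.20 (adjusted p = 0.149), and without replicate 2 of TTP_E11 it was 0.29 (adjusted p = 0.0222).

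In the gamma cluster, 1 of 10 members was higher in TTP clones (PCDHGC3) and 7 were lower, where 35.4% of all genes were higher and 34.6% lower. The lower ones were PCDHGA2, PCDHGB1, PCDHGA4, PCDHGB2, PCDHGA5, PCDHGB3 and PCDHGA6, with log2 changes between -0.83 (PCDHGA2) and -0.14 (PCDHGB2). PCDHGA1 and PCDHGC5 did not pass, with log2 changes of -0.32 and -0.14. Names with GA and GB mark the A-type and B-type variable exons, and GC the C-type exons at the end of the cluster, which in mouse neurons are used more uniformly than the others.

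PCDHGB2 and PCDHGB1, both B-type, held most of the gamma level. PCDHGB2 had 349.8, 310.9, 345.8 and 302.3 normalized counts in TTP_E11 and 253.3, 280.7, 236.4 and 250.9 in TTP_H3, against 328.1, 346.2, 329.9 and 343.5 in EV_A and 355.4, 333.5, 262.6 and 263.3 in EV_B. TTP_E11 and the EV clones overlapped, and TTP_H3 had the lowest mean. The log2 change of TTP versus EV was -0.14 ± 0.06 (SE, adjusted p = 0.0396, limma). The call was lost on leaving out any 1 of 9 libraries, replicates 2 and 4 of TTP_E11, 1, 3 and 4 of TTP_H3, 2 and 4 of EV_A, and 1 and 2 of EV_B, with adjusted p-values between 0.0542 and 0.130. PCDHGB1 had 156.7, 121.6, 113.5 and 118.9 normalized counts in TTP_E11 and 93.9, 95.1, 105.7 and 60.5 in TTP_H3, against 127.8, 139.2, 123.0 and 121.6 in EV_A and 128.7, 135.5, 118.9 and 122.2 in EV_B. Only TTP_H3 lay below the other clones. Its log2 change of -0.27 ± 0.09 (SE, adjusted p = 0.0115, limma) combined -0.55 and -0.53 for TTP_H3 against EV_A and EV_B with -0.01 and 0.01 for TTP_E11.

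PCDHGC3, a C-type isoform whose cytoplasmic part was found in mouse to bind Axin1 and to dampen Wnt signalling, was the one clustered gene that was higher in all 4 contrasts. It lies at 141475947 to 141512979 on chromosome 5, counting the constant exons. It had 160.5, 139.3, 142.1 and 154.8 normalized counts in TTP_E11 and 143.3, 162.7, 197.5 and 142.6 in TTP_H3, against 114.6, 142.0, 127.3 and 117.2 in EV_A and 113.3, 118.6, 128.4 and 129.8 in EV_B. A single EV library, replicate 2 of EV_A, lay within the range of the TTP libraries, and all others were below it. The log2 change was 0.32 ± 0.08 (SE, adjusted p = 0.000499, limma), and the single contrasts were between 0.25 (TTP_E11 versus EV_A, adjusted p = 0.0444) and 0.39 (TTP_H3 versus EV_B). All 4 passed under 16 of 25 alternative settings, but not with edgeR or DESeq2, nor on leaving out replicates 1 or 4 of TTP_E11, 1, 3 or 4 of EV_A, or 1 or 2 of EV_B. PCDH7, PCDH9, PCDH10 and PCDH18 passed all 4 under 25 of 25 settings.

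The other lower gamma genes were A-type genes and PCDHGB3. PCDHGA4 ranged between 24.9 and 45.1 normalized counts in TTP libraries and between 37.4 and 70.1 in EV libraries, with a log2 change of -0.55 ± 0.13 (SE, adjusted p = 0.000418, limma). PCDHGB3 ranged between 6.45 and 16.1 in TTP libraries and between 15.7 and 30.3 in EV libraries (log2 change -0.77 ± 0.19), and PCDHGA5 ranged between 7.22 and 23.8 in TTP libraries and between 19.5 and 39.2 in EV libraries (log2 change -0.74 ± 0.19). In all 3 genes the lowest libraries were TTP libraries and the arms overlapped. PCDHGB3 was the one clustered gene that was lower in TTP_E11 than in EV_B past the test (log2 change -0.86, adjusted p = 0.00802). PCDHGA6 and PCDHGA2 were lower over the arms (log2 changes -0.44 and -0.83, adjusted p = 0.00576 and 0.00919), and their log2 changes in EV_B versus EV_A, which shares the EV libraries, were -0.56 and -1.14.

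Clones of the same arm differed from each other too. EV_B had 0 members higher and 11 lower than EV_A, where 20.2% of all genes were higher, 16.6% lower and 36.8% passed in either direction. At an unadjusted p below 0.05 in limma 1 member was higher, and edgeR and DESeq2 called 1 each. The 11 lower members were PCDH1, PCDH18, 6 beta genes (PCDHB8, PCDHB9, PCDHB10, PCDHB11, PCDHB13 and PCDHB14) and 3 gamma genes (PCDHGA2, PCDHGA6 and PCDHGC5). The log2 changes of the 6 beta genes lay between -0.72 (PCDHB8) and -0.50 (PCDHB14). This comparison and that of TTP with EV share the EV libraries. The largest change was that of PCDHGC5, which had between 1.06 and 7.70 normalized counts in EV_B and between 10.4 and 21.3 in EV_A (log2 change -1.78 ± 0.44, SE, adjusted p = 0.00157, limma). PCDHGC5 had between 2.29 and 17.9 in the TTP libraries and so overlapped both EV clones. The calls for PCDHGA2 and PCDHGA6 between the EV clones were each lost on leaving out 1 library, replicate 2 of EV_B or 4 of EV_A for PCDHGA2 (adjusted p = 0.117 and 0.0859) and replicate 1 of EV_B or of EV_A for PCDHGA6 (adjusted p = 0.0930 and 0.0524).

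TTP_H3 had 0 members higher and 5 lower than TTP_E11, where 6.35% of all genes were higher, 5.32% lower and 11.7% passed in either direction. At an unadjusted p below 0.05 in limma 1 member was higher and 10 were lower, edgeR called 0 higher and DESeq2 1. The 5 lower members were PCDHB2, PCDHB10, PCDHB13, PCDHGB1 and PCDHGB2, all clustered and among them the leading isoforms of both clusters. Their log2 changes were -0.87 ± 0.26 for PCDHB2, -0.60 ± 0.13 for PCDHB10, -0.68 ± 0.12 for PCDHB13, -0.54 ± 0.13 for PCDHGB1 and -0.36 ± 0.09 for PCDHGB2 (SE, adjusted p between 0.000228 and 0.0259, limma). Without replicate 3 of TTP_H3 the count was 8 members, without replicate 4 of EV_B it was also 8, without both it was 10, and without replicate 4 of TTP_H3 it was 3. PCDH1, which was higher in TTP_H3, passed without replicate 3 of TTP_H3 (log2 change 0.68, adjusted p = 0.0330) and without replicate 4 of EV_B (0.53, adjusted p = 0.00538). PCDH9 was lower without either library, PCDHGA5 without replicate 3 of TTP_H3 (-0.90, adjusted p = 0.0238) and PCDH18 without replicate 4 of EV_B (-0.51, adjusted p = 0.0372). PCDHB14 was lower on leaving out both (-0.38, adjusted p = 0.0480). EV_B is no part of this contrast, and the fit takes its spread over all 4 clones. Leaving out replicate 4 of EV_B alone left the log2 changes as they were (0.53 for PCDH1, -0.51 for PCDH18) and moved only the p-values. The call for PCDHGB1 was lost without replicate 4 of TTP_H3 (adjusted p = 0.0534). That for PCDHB2 was lost on leaving out replicates 1, 2 or 4 of TTP_E11 or 1 or 4 of TTP_H3 (adjusted p between 0.0611 and 0.0742).

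The 4 contrasts of single clones differed in how many members passed. TTP_H3 versus EV_A had 6 members higher and 14 lower (background 32% and 31.9% of all genes). TTP_E11 versus EV_A had 6 higher and 10 lower (background 31.8% and 31.3%), and TTP_H3 versus EV_B had 6 higher and 8 lower (background 29.8% and 29.7%). TTP_E11 versus EV_B had 8 higher and 1 lower (background 29.9% and 29.5%), the 8 being the 5 concordant genes, PCDHB2, PCDHB9 and PCDHGC5. The number of lower members thus depended on which clones were set against each other, while the 4 nonclustered genes were higher in each contrast. These contrasts share clones and are not independent of each other.

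The summed level of each cluster was lowest in TTP_H3 and highest in EV_A. The 11 beta genes summed to 611 ± 31.1 normalized counts in TTP_E11 and 454 ± 25.2 in TTP_H3, against 774 ± 42.4 in EV_A and 548 ± 58.4 in EV_B (SD, n = 4 each). EV_A was above and TTP_H3 below all other libraries, and TTP_E11 and EV_B overlapped. The ratio of means was 0.789 for TTP_E11 over EV_A and 1.12 for TTP_E11 over EV_B, and 0.586 and 0.828 for TTP_H3. The 10 gamma genes summed to 727 ± 53.8 in TTP_E11 and 617 ± 42.9 in TTP_H3, against 789 ± 21.5 in EV_A and 704 ± 47.8 in EV_B (SD, n = 4 each). Gamma sums spanned less, with ratios between 0.782 (TTP_H3 over EV_A) and 1.03 (TTP_E11 over EV_B). No test was made on these sums.

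**Figure D3:**
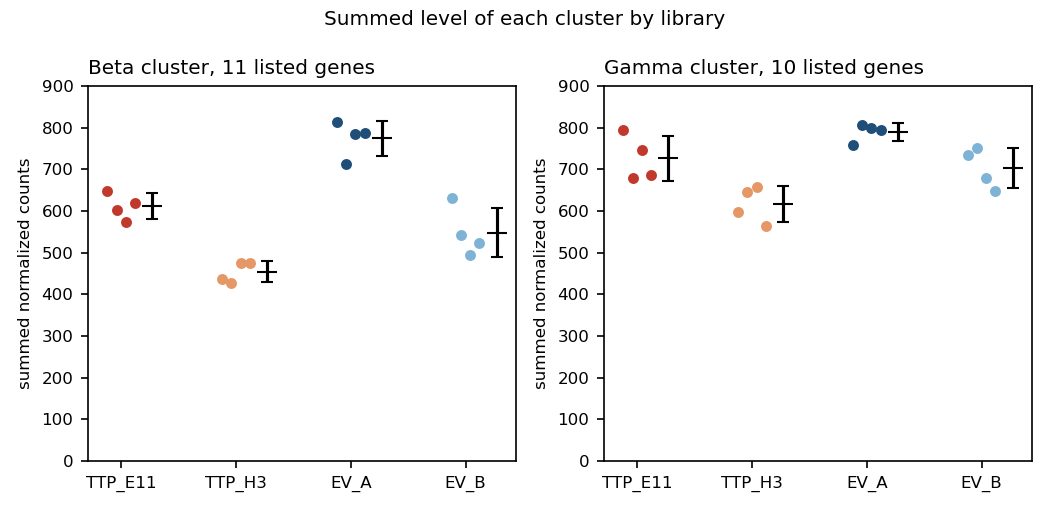
Summed normalized counts (y axes from 0) of the listed beta genes (left) and gamma genes (right) in each library; dots are libraries and bars the mean and SD of the 4 libraries of a clone. The beta sum was 454 ± 25.2 in TTP_H3 and 774 ± 42.4 in EV_A, the lowest and the highest clone, and the gamma sums had the same extremes with a narrower span.

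Which isoforms each clone used was described by counting an isoform as used where every library of a clone held at least 10 normalized counts. Of the 21 clustered members, TTP_E11 used 15, TTP_H3 used 16, EV_A used 18 and EV_B used 16. A common set of 14 was used by all 4 clones, 9 beta and 5 gamma isoforms, and PCDHB15 and PCDHGA1 were used by no clone. Of the remaining 5, PCDHGA2 and PCDHGC5 reached the minimum in every library of EV_A, PCDHB6 in every library of TTP_H3, PCDHGA5 in those of all clones but TTP_H3 and PCDHGB3 in those of all but TTP_E11. Such a count does not test a difference between clones. PCDHB6 had 14.5 ± 5.73 normalized counts in TTP_H3 and 14.6 ± 4.72 in EV_A (SD, n = 4 each), where the lowest library had 9.53, with a log2 change of -0.02 (adjusted p = 0.954, limma). The counts moved with the minimum. At a minimum of 5 normalized counts the clones used 19 (TTP_E11), 19 (TTP_H3), 20 (EV_A) and 19 (EV_B), and at a minimum of 20 they used 13, 13, 13 and 14 in the same order.

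The listed isoforms were not spread evenly along the gamma cluster. In genome order, 8 of the 9 gamma genes before PCDHGA7 were listed, 0 of the 10 from PCDHGA7 to PCDHGA12, and 2 of the 3 C-type genes after it. In the beta cluster, 5 of 16 genes were not listed (PCDHB1, PCDHB3, PCDHB4, PCDHB5 and PCDHB7), all in the first part of the cluster, while every gene from PCDHB8 to PCDHB15 was listed. Of the 15 alpha genes, 0 were listed, and of 13 nonclustered protein-coding genes, 5. The smallest mean of any listed gene was 9.68 normalized counts, and levels of genes outside the table were not analysed here.

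Within each cluster the same isoforms led in every clone. Shares were taken of the summed level per kilobase of exon that belongs to no other gene. PCDHB13 was first of the 11 beta genes, with 18.04 ± 2.25% in TTP_E11 and 14.8 ± 1.37% in TTP_H3, against 20.6 ± 1.65% in EV_A and 20.1 ± 2.00% in EV_B (SD, n = 4 each). PCDHB10 came next in all 4 clones, with between 12.4% (TTP_H3) and 15.6% (EV_A), and PCDHB15 was last. The place after PCDHB10 went to PCDHB14 in TTP_E11, PCDHB8 in TTP_H3 and PCDHB11 in EV_A and EV_B. No test was made between these 3 genes, and in TTP_H3 PCDHB10 lay within the SD of PCDHB8. The order below PCDHB13 depended on dividing by length. As plain counts PCDHB14 came next in all 4 clones, with between 13.3% (TTP_E11) and 14.3% (EV_B). Per kilobase, PCDHB2 changed rank most. It was the fifth of the beta genes in TTP_E11 with 9.91 ± 0.59% and the eighth in TTP_H3 with 7.19 ± 1.35%, against the tenth in EV_A with 2.22 ± 0.68% and the ninth in EV_B with 5.04 ± 1.92%.

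The gamma cluster was more uneven. PCDHGB2 was first, with 46.6 ± 1.46% in TTP_E11 and 44.2 ± 4.10% in TTP_H3, against 44.9 ± 0.93% in EV_A and 44.6 ± 4.21% in EV_B (SD, n = 4 each), which do not differ beyond their spread. PCDHGB1 came next and PCDHGC3 after it in TTP_E11, EV_A and EV_B, while PCDHGC3 came before PCDHGB1 in TTP_H3, with 22.1 ± 2.41% against 19.3 ± 3.20% for PCDHGB1. These 3 genes together held between 79.9% (EV_A) and 86.5% (TTP_E11) of the gamma level, and PCDHGA4 followed in each clone with between 5.28% and 7.24%. The share of PCDHGC3 was 16.9 ± 1.23% in TTP_E11 and 22.1 ± 2.41% in TTP_H3, against 13.3 ± 1.00% in EV_A and 14.5 ± 1.95% in EV_B. The 10 gamma genes share their constant exons, yet in the same libraries PCDHGB2 held at least 236 normalized counts where PCDHGA1, PCDHGA2 and PCDHGC5 went down to between 1.06 and 2.29, so the gamma counts had no common floor.

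**Figure D4:**
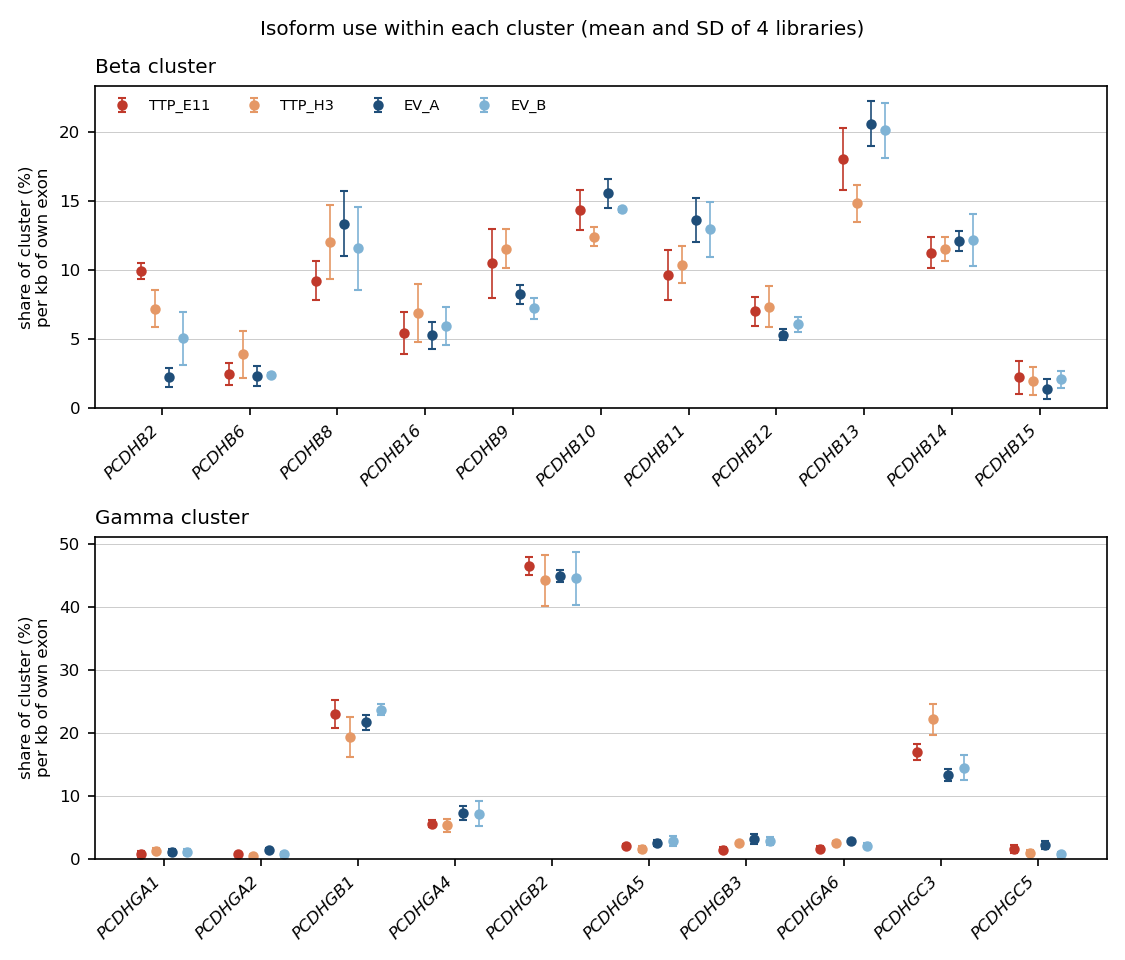
Share of each isoform in the level of its cluster per kilobase of own exon (y axes, percent), as mean and SD of the 4 libraries of a clone, for beta (top) and gamma genes (bottom) in genome order. PCDHB13 leads the beta genes and PCDHGB2 the gamma genes in all 4 clones, and PCDHB2 has its highest share, 9.91%, in TTP_E11.

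The order of isoforms was alike between clones. Spearman's rho of clone means per kilobase of own exon was 0.755 (TTP_E11 with EV_A) to 0.982 (EV_A with EV_B) across 11 beta genes. Across the 10 gamma genes it was between 0.903 and 0.939. These values run across genes, which are not independent and share sequence and lengths with themselves in every clone, so they only describe the likeness.

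Genes that control or accompany protocadherins were read off the same fit. Of 24 regulators of clustered promoters, such as CTCF, cohesin subunits, DNA methyltransferases and TET enzymes, 24 were listed, and 4 were higher and 16 lower in TTP clones, with a median log2 change of -0.18. Over all genes the shares were 35.4% higher and 34.6% lower. By the concordant rule 3 were higher and 14 lower, beside 19% and 19.5% of all genes. TET1, which oxidises methylated cytosine, had the largest change, with 26.4 ± 4.60 normalized counts in TTP_E11 and 17.4 ± 5.31 in TTP_H3, against 47.3 ± 4.86 in EV_A and 29.5 ± 7.55 in EV_B (log2 change -0.78 ± 0.16, adjusted p = 7.58e-05, limma). The cohesin subunits SMC1A and STAG1 had log2 changes of -0.61 and -0.54 and TET2 of -0.49, and these 3 were lower in all 4 contrasts.

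Of 22 signalling partners 21 were listed, 6 higher and 9 lower (median log2 change -0.01), where 35.4% and 34.6% of all genes passed. CYFIP2, a subunit of the WAVE complex that delta2 protocadherins bind, had 438 ± 27.6 normalized counts in TTP_E11 and 358 ± 34.2 in TTP_H3, against 32.7 ± 4.40 in EV_A and 52.6 ± 5.50 in EV_B (SD, n = 4 each). Its log2 change was 3.23 ± 0.08 (SE, adjusted p = 6.83e-26, limma). The kinase FYN had a log2 change of 1.11, and the protease ADAM10, which sheds cadherins and gamma protocadherins, of -0.62. These 3 genes were concordant in the direction of their sign. Of 31 other cadherins 16 were listed, 9 higher and 4 lower (median 0.22), beside the same 35.4% and 34.6% of all genes. DSC2, a desmosomal cadherin, was at 46.0 ± 5.73 normalized counts in TTP_E11 and 24.6 ± 10.99 in TTP_H3, against 0 in all libraries of EV_A and 2.04 ± 1.87 in EV_B (SD, n = 4 each). N-cadherin (CDH2) had a log2 change of 2.69 and the calsyntenin CLSTN3 of 1.38. CELSR1, a cadherin with a part in planar cell polarity, was lower in all 4 contrasts and had a log2 change of -1.02 over the arms (adjusted p = 4.37e-08, limma).

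Of 33 symbols of genes near the clusters on chromosome 5, some being names of the same gene, 25 were listed. Of these, 18 were higher and 4 lower in TTP clones (median log2 change 0.17), where 35.4% of all genes were higher and 34.6% lower. HBEGF, the neighbour with the largest change, had a log2 change of -1.21, FCHSD1 of 0.65, RNF14 of -0.47 and TMCO6 of 0.40. Of 15 neuronal marker genes 5 were listed, 0 higher and 2 lower (TUBB3 and L1CAM, log2 changes -0.95 and -0.64), beside the same 35.4% and 34.6% of all genes. The summed level of the 5 was between 2742 and 2905 normalized counts in TTP_E11 and between 2274 and 2677 in TTP_H3, against between 4814 and 4997 in EV_A and between 2837 and 3727 in EV_B. Most of this sum was L1CAM alone, with means of 2539 in TTP_E11, 2251 in TTP_H3, 4459 in EV_A and 3137 in EV_B. The order of clones in the sum is thus that of L1CAM. It was that of the beta and gamma sums apart from the middle pair, and any link between them was not tested. Of 8 markers of immune, endothelial and muscle cells 2 were listed, with summed levels between 20.6 and 35.5 in TTP libraries and between 19.98 and 50.6 in EV libraries, and neither passed.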

How the data were processed

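RNA-seq libraries of 16 cultures, 4 from each of 4 clones, took their clone from the library names that the labels give. Per the submitters' processing notes, Trimmomatic 0.36, STAR 2.5.2b, featureCounts, Subread 1.5.2 and DESeq2 were used with the build GRCh38, without settings. The authors deposited 1 normalized signal per gene and library, whose values are read counts over 1 size factor per library: 100% of values came out as whole reads within 0.001. Per the file headers, the authors' table also holds a log2 fold change, a p-value and an adjusted p-value for TTP against EV.

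The plan named limma for normalized values and edgeR for raw counts, and the deposited values are normalized. Accordingly, limma 3.58.1 (R 4.3.3) with a robust trend was fitted on log2(value + 1) of all 14857 genes in 4 clone groups. No filter was used, and p-values had Benjamini-Hochberg adjustment with a threshold of 0.05. The method was tested on simulated data. edgeR 4.0.16 and DESeq2 1.42.0 on recovered reads were alternatives, with other pseudocounts, a filter, TMM scaling, the replicate number as a block and each library left out. Exons and shared stretches of 50 bases came from GENCODE 29, which matched 26 of 26 members though the authors may have used another annotation, and promoters from RefSeq on GRCh38.p14.

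Members and lists were chosen with earlier results of these data known. Values per library were given for members among the 10 highest means or with clone means 4-fold apart, and also for PCDH10 and PCDHB2, which were added after their values were seen. Genes of other lists were named by the largest change, at most 4 per list, and 1 gene that this rule names is not reported here.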

Additional observations from a re-analysis of the deposited data

Results flagged for a closer look

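In 104 groups of 4 libraries (26 genes in 4 clones), 7 single libraries stood far from the other libraries of their clone, where chance gives about 1 in 20 groups. These were PCDH1 in replicate 4 of TTP_E11 with 96.8 normalized counts, PCDHB2 in replicate 3 of TTP_E11 with 47.4 and PCDHB14 in replicate 1 of TTP_H3 with 54.5. In the EV clones they were PCDHB2 in replicate 1 of EV_A with 22.9, PCDHGA4 in replicate 3 of EV_A with 70.1, PCDH10 in replicate 4 of EV_B with 15.99 and PCDHB9 in replicate 4 of EV_B with 37.6. PCDHB9 in EV_B had a narrow range, so that its gap to the next library was small in counts.

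The difference from EV was not the same in both TTP clones for 5 clustered genes. The effect in TTP_H3 minus that in TTP_E11, tested in limma against the same EV clones, was -0.87 in log2 for PCDHB2, -0.60 for PCDHB10, -0.68 for PCDHB13, -0.54 for PCDHGB1 and -0.36 for PCDHGB2. It is the contrast of TTP_H3 with TTP_E11 given above, so these are not further results.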

How the results depend on the processing

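Without pairing in the labels, the replicate block gave 19 members for TTP versus EV, 11 for EV_B versus EV_A, 6 for TTP_H3 versus TTP_E11 and 5 concordant, against 19, 11, 5 and 5 without it, and correlations of same-numbered libraries were between -0.0587 and 0.0614 over 24 pairs. Leaving out 1 library gave 18 to 19, 10 to 12, 3 to 8 and 4 to 5 members. Other settings left TTP versus EV at 17 to 19, EV_B versus EV_A at 9 to 12 and the concordant count at 4 to 5. TTP_H3 versus TTP_E11 had 8 members with DESeq2 and with only the clones compared, and 10 without replicate 3 of TTP_H3 and replicate 4 of EV_B together, an alternative chosen after seeing the data; the cause was not tested. As plain counts not divided by length, PCDHB13 held 23.2% of the beta level in TTP_E11, 19.3% in TTP_H3, 26.4% in EV_A and 25.8% in EV_B, and PCDHGB2 45.05% of the gamma level in TTP_E11 and 42.7% in EV_A, by the change of denominator. Below these leaders the order changed too. PCDHB14 then followed PCDHB13 in every clone, and PCDHB10 held 10.4% in TTP_H3. In TTP_E11 PCDHGC3 then came before PCDHGB1, with 20.6% against 17.5%, while PCDHGB1 stayed ahead in EV_A and EV_B. Sign changes of TTP versus EV occurred in 4 genes that had not passed. On leaving out 1 library in turn, the log2 change lay between -0.052 and 0.181 in PCDHB6, between -0.0100 and 0.0737 in PCDHB12, between -0.18 and 0.119 in PCDHB15 and between -0.362 and 0.0217 in PCDHGC5. Without both libraries named above it was -0.0403 in PCDHB12 and -0.0960 in PCDHB15. The filter on a mean of at least 20 removed the lowest members, which then have no value. For TTP versus EV all libraries belong to the clones compared, so restricting the fit to them was no alternative. Low read numbers limit the precision of the lowest members, and a p that misses the threshold does not show that the clones are alike.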
